A study of Mus musculus with 23 samples.

Results

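The genes described here encode the core of the basement membrane: the laminin chains Lama1, Lama5, Lamb1 and Lamc1, the collagen IV chains Col4a1 and Col4a2, the linkers Nid1, Nid2 and Hspg2, and the collagen chaperone Sparc. They are 10 of the 55573 genes counted, and all 10 passed the filter on low counts in every comparison. They were chosen by name, with the expression differences between SET knockout and wild-type cells in these same samples already known. The differences between untreated knockout and wild-type cells are therefore given as a description, without p-values, and so are the counts of these genes that the fit over all genes called in that contrast. The choice also named the sets, the retinoic acid groups and the doxycycline groups, so the tests given for those comparisons are not independent support. The lists of related genes and of cell type markers were also chosen with earlier results of these data known. Their p-values, also those for untreated knockout against wild-type cells, are therefore not independent support either.

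A basement membrane is a thin sheet of matrix under epithelia. Laminins, each a trimer of an alpha, a beta and a gamma chain, assemble at the cell surface through integrins and dystroglycan. Collagen IV, whose common trimer holds chains from Col4a1 and Col4a2, forms a second network, and nidogens and perlecan (Hspg2) link both. In the early embryo the primitive endoderm and its parietal derivative secrete large amounts of these proteins, and embryonic stem cells (ESCs) that turn towards endoderm raise their transcripts.

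The series measured polyadenylated RNA by QuantSeq, which sequences tags from the 3′ end of transcripts, in mouse ESCs grown on embryonic fibroblast feeders in medium with serum and LIF. SET is a histone chaperone and an inhibitor of the phosphatase PP2A, and the title of the series links it to p53, β-catenin and ESC differentiation. R1 ESCs were wild type (WT) or SET-/- (KO, lines KO1 and KO2), in set 1 (2 WT, 2 KO1 and 2 KO2 samples) and set 2 (again 2, 2 and 2). Set 2 also had 1 WT and 2 KO samples with 4 d of retinoic acid (RA), a standard inducer of differentiation. Both KO samples with RA are titled KO1, although the deposited name of 1 of them carries the code used elsewhere for KO2. KH2 ESCs carried a transgene for HA-tagged SETa (SETa-HA) behind a doxycycline-inducible tetR promoter, and 2 samples without and 2 with 1 μg/mL doxycycline (Dox) for 24 h were measured. The KH2 cells were not labelled as lacking SET.

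Assigned counts ran from 806412 to 1445013 per sample in set 1 and from 2833064 to 10217040 in the other groups. Levels are CPM, counts scaled to library size with TMM factors. QuantSeq gives about 1 tag per transcript, so CPM was not divided by gene length. No label says that replicates were separate cultures, so the p-values reflect a spread between samples that could be technical. Fits of untreated KO against WT took KO1 and KO2 samples as replicates of 1 genotype. Their p-values therefore do not treat the line as the unit. Set itself (chromosome 2, 30057378 to 30072577) checked the labels: its level was 943 and 979 CPM in WT and 16.8 to 25.6 in KO of set 1. WT of set 2 had 1198 and 1454 CPM and KO had 273 to 569, so the transcript was reduced far less there. After RA it was 580 CPM in WT and 194 and 288 in KO, and a 3′ tag outside an edited exon does not test the coding lesion. All 8 ESC markers examined had counts in every group, but Pou5f1 averaged only 0.82 CPM in WT with RA. The summed level of these markers was 1318 CPM or more in untreated R1 samples. With RA it was 251 CPM in WT and 297 to 301.5 in KO. Untreated set 2 samples 2a, 2b, 2d and 2e each had 2 libraries, which were summed. The 10 untreated set 2 libraries fell into 2 sub-batches that the titles do not name, called A and B here, and libraries of the same code fell on opposite sides. Since these are bulk samples, fewer cells of a type and less RNA per cell cannot be told apart.

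Laminin chains were higher in KO than in WT in both sets. Lama1 (ENSMUSG00000032796, GRCm38 chromosome 17, 67697259 to 67822647) encodes the alpha 1 chain, the alpha chain of early embryonic and parietal endoderm laminin. Its level was 99.3 and 57.9 CPM in the WT samples of set 1, 132 and 225 in KO1 and 235 and 243 in KO2. Levels in set 2 were 41.6 and 35.6 CPM in WT, 59.9 and 61.8 in KO1 and 68.2 and 49.3 in KO2. Each KO sample lay above both WT samples of its set, and the lowest KO samples, 132 and 49.3 CPM, were nearest to WT. On the log2 scale KO exceeded WT by 1.41 (SE 0.27) in set 1 and by 0.70 (SE 0.15) in set 2.

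Lama5 (chromosome 2, 180176373 to 180225859) encodes alpha 5, the other alpha chain with a role in the early embryo. It stood at 43.6 and 55.4 CPM in WT of set 1, and at 95.4 and 67.8 in KO1 and 106.5 and 97.4 in KO2. Set 2 had 79.7 and 86.8 CPM in WT, 176 and 166 in KO1 and 179 and 108 in KO2. The groups did not overlap in either set when libraries were summed. Among single libraries of set 2 they did, since 1 WT library reached 107.5 CPM and the lowest KO library stood at 86.4. The former was of sub-batch B and the latter of A. Within A, WT libraries had 59.3 and 77.0 CPM and KO libraries 86.4 to 132. Within B, WT had 92.7 and 107.5 CPM and KO 174 to 207, so the genotypes overlapped in neither sub-batch. The Lama5 difference was similar in size in both sets, with log2 fold changes of 0.89 (SE 0.22) and 0.96 (SE 0.16).

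Lamb1 (chromosome 12, 31265234 to 31329644) and Lamc1 (chromosome 1, 153218922 to 153332786) encode the beta 1 and gamma 1 chains, which most laminins share. Lamb1 was at 206 and 175 CPM in WT of set 1 and at 434, 534, 529 and 569 in KO. Set 2 held 279 and 264 CPM in WT and 561, 511, 516 and 436 in KO. The 2 genotypes were thus widely apart for Lamb1 in both sets, with log2 fold changes of 1.44 (SE 0.16) and 0.94 (SE 0.11). Lamc1 was at 180.0 and 164 CPM in WT of set 1 and at 344, 255, 405 and 369 in KO. Its set 2 values were 137.5 and 164 CPM in WT and 198, 213, 234 and 209 in KO. Its groups did not overlap either, but its log2 fold changes, 1.00 (SE 0.19) and 0.54 (SE 0.11), were smaller than those of Lamb1.

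Collagen IV had the highest KO-over-WT ratios of the 10 genes in set 1. Col4a1 (ENSMUSG00000031502, chromosome 8, 11198423 to 11312826, minus strand) and Col4a2 (ENSMUSG00000031503, chromosome 8, 11312805 to 11449287, plus strand) lie head to head, and their annotated first exons share 22 bases. That stretch is shown because both genes are transcribed from it in opposite directions and both moved in the same direction in R1 cells. It is printed on the plus strand of GRCm38.p6, from the RefSeq promoter table, at chr8:11312801-11312830, with the 22 shared bases in capitals and 4 bases on either side.
Col4a1 and Col4a2 start region: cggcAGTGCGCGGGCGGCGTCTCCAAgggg
QuantSeq tags come from near the 3′ ends of transcripts, far from this stretch.

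Col4a1 stood at 131.5 and 101 CPM in WT of set 1, at 330.2 and 338 in KO1 and at 529 and 531 in KO2. The WT samples of set 2 held 115 and 98.0 CPM, against 229 and 225 in KO1 and 230.3 and 194 in KO2. WT levels were alike in the 2 sets, whereas KO levels were higher in set 1, above all in KO2. The mean of KO over that of WT was 3.72-fold in set 1 (log2 1.89, SE 0.24) and 2.07-fold in set 2 (log2 1.10, SE 0.12).

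Col4a2 stood at 40.4 and 37.2 CPM in WT of set 1 and at 120.1, 147, 163 and 178 in KO. The WT samples of set 2 held 39.3 and 38.4 CPM, and the KO samples 66.2, 69.7, 77.0 and 44.7. As for Col4a1, the WT levels were alike between sets and the KO levels were not. The KO mean was 3.92-fold (log2 1.98, SE 0.21) and 1.66-fold (log2 0.79, SE 0.17) that of WT. Col4a1 had 2.30 to 4.34 tags for each Col4a2 tag over the 19 samples.

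The linkers did not move as a group. Nid1 (chromosome 13, 13437551 to 13512269), which binds laminin gamma 1 and collagen IV, stood at 76.7 and 55.4 CPM in WT of set 1 and at 40.7, 29.1, 44.1 and 60.6 in KO. Set 2 had 32.2 and 37.2 CPM in WT and 26.7, 33.8, 31.5 and 35.1 in KO. Its groups overlapped in both sets, with log2 fold changes of -0.59 (SE 0.25) and -0.09 (SE 0.16). Nid2 (chromosome 14, 19751265 to 19811787), the second nidogen, was the lowest of the 10 in R1 cells, between 10.2 and 22.0 CPM in every R1 sample. Its log2 fold changes were -0.20 (SE 0.31) and -0.39 (SE 0.21).

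Hspg2 (chromosome 4, 137468769 to 137570630) encodes perlecan, a heparan sulfate proteoglycan. It stood at 78.3 and 117 CPM in WT of set 1 and at 192, 236, 175 and 150 in KO (log2 0.96, SE 0.22). Set 2 had 280.3 and 268 CPM in WT and 351, 361.5, 379 and 250.5 in KO (log2 0.33, SE 0.13). The groups were apart in set 1 and overlapped in set 2 through the KO2 sample 2f.

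Sparc (chromosome 11, 55394500 to 55423183) encodes a secreted protein that binds collagen IV and takes part in its deposition. Sparc was at 387 and 362 CPM in WT of set 1 and at 1003, 1269, 1206 and 1260 in KO. Set 2 had 632 and 686 CPM in WT and 1079, 992, 1126 and 917 in KO. KO levels were alike in the 2 sets, and it was the WT level that differed. The log2 fold changes were 1.66 (SE 0.15) and 0.68 (SE 0.11).

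**Figure D1:**
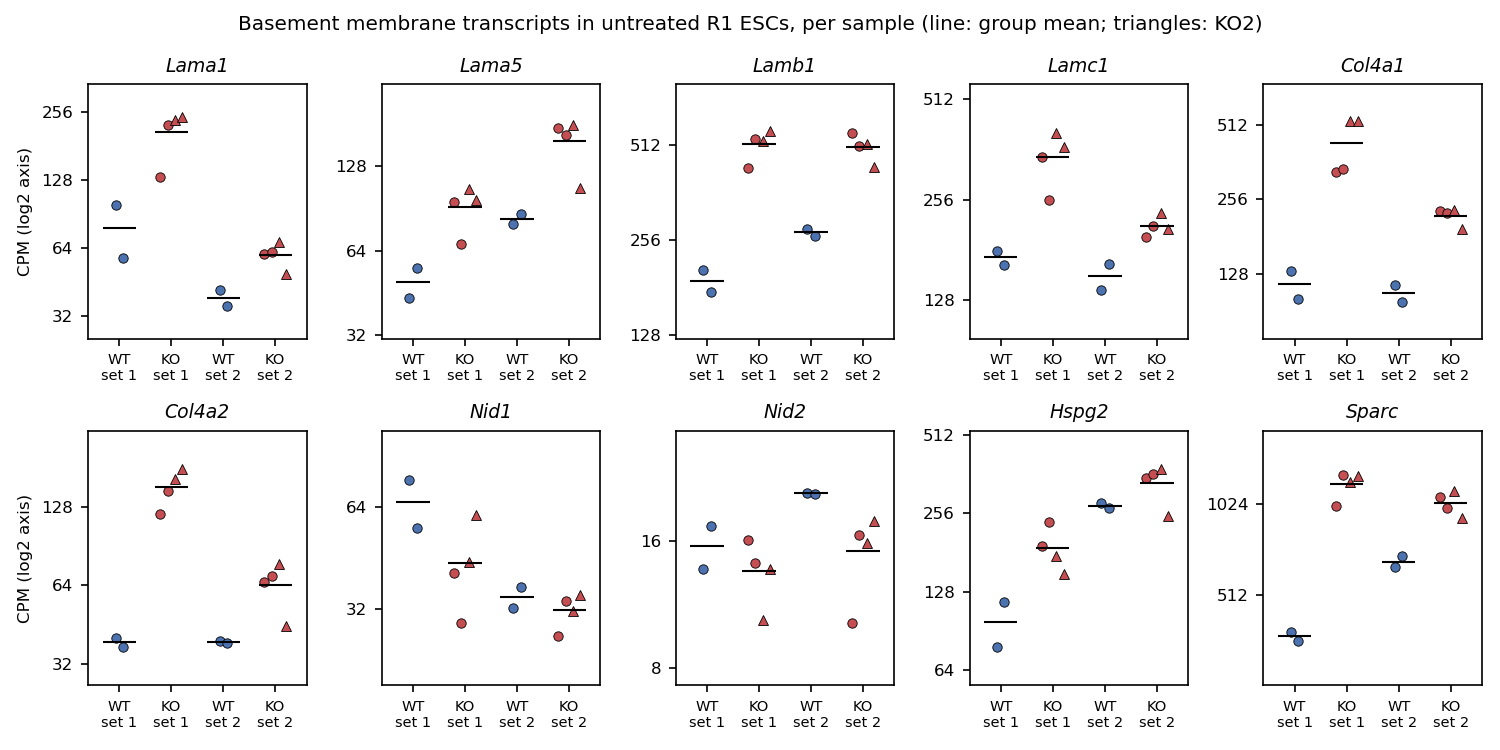
CPM (log2 axis) of the 10 genes in untreated R1 samples of sets 1 and 2, WT in blue and KO in red, with the group mean as a line and KO2 as triangles. For 7 genes each KO sample lies above both WT samples of its set, and the exceptions are Nid1, Nid2 and Hspg2.

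As a description, in the fit of both sets with set as a term 8 of the 10 genes were called higher in KO at an adjusted p below 0.05, where 10.4% of all genes tested were called higher (edgeR quasi-likelihood test, Benjamini-Hochberg adjustment). The exceptions were Nid1 and Nid2. In set 1 alone 8 were called higher against 7.19% of all genes, and in set 2 alone 7 against 5.64%, Hspg2 being the additional exception. For 7 of the 10, all but Nid1, Nid2 and Hspg2, every KO sample lay above every WT sample of its set, which held for 7.14% of all genes. The median log2 fold change over the 10 was 1.21 in set 1 and 0.69 in set 2, and over all genes -0.02 and 0.01. These counts are no test of the 10 genes and nothing is read from them, because this contrast was in view when the genes were chosen. In set 1 the count was 6 without WT sample 1a, when Lama5 and Hspg2 were lost. In set 2 leaving out WT sample 2b reduced the count to 4, with Lama1, Lama5 and Col4a2 lost. Fits of the set 2 libraries of A alone and of B alone called 5 and 8 of the 10.

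**Figure D2:**
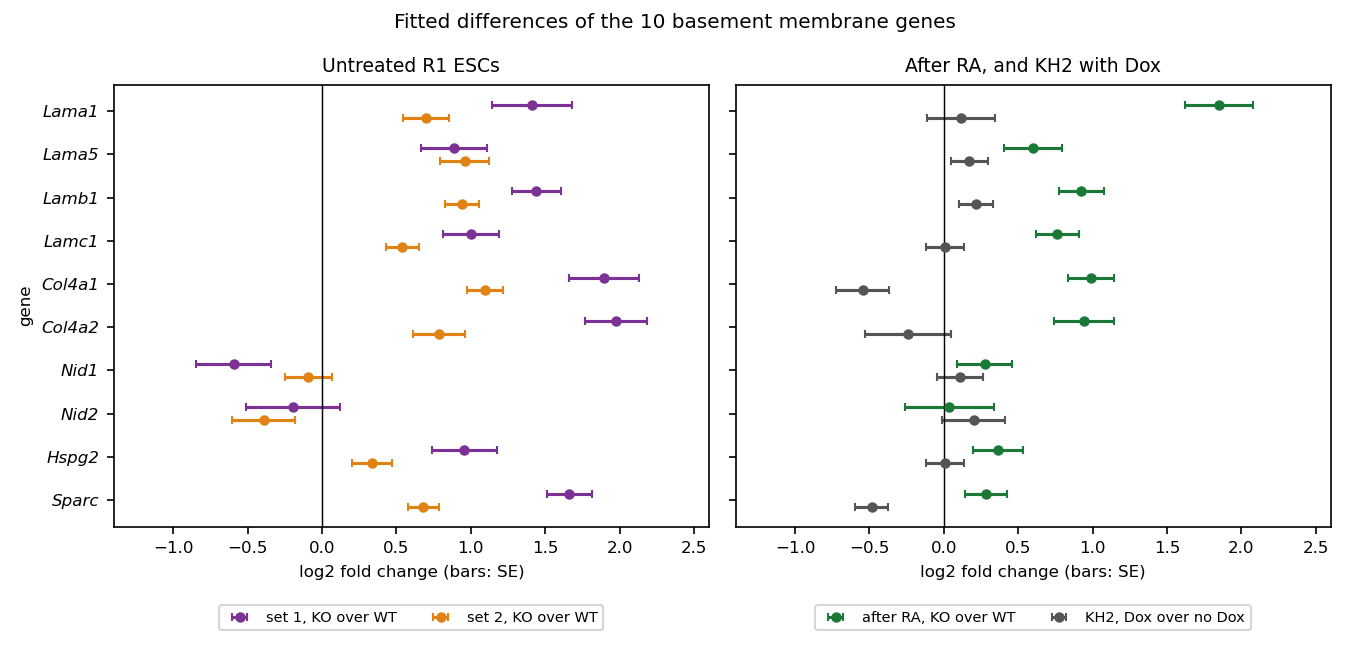
Fitted log2 fold change with its SE for each gene, KO over WT in untreated set 1 and set 2 (left), and KO over WT after RA and Dox over no Dox in KH2 cells (right). Collagen IV is highest in set 1, at 1.89 and 1.98, Lama1 is highest after RA, at 1.85, and Dox values lie between -0.55 and 0.22.

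The KO difference was smaller in set 2 than in set 1 for 2 of the 10 genes by the test of the difference itself, a direction in which 0.669% of all genes were called. They were Col4a2, with a set 2 minus set 1 difference of -1.21 on the log2 scale (SE 0.28, edgeR adjusted p = 0.0330), and Sparc, with -0.99 (SE 0.18, edgeR adjusted p = 0.00481). The Col4a1 difference, -0.81 (SE 0.26), pointed the same way and did not pass (edgeR adjusted p = 0.176). Lama5 had 0.06 (SE 0.29, edgeR adjusted p = 0.962). The Col4a2 call was lost without any 1 of samples 1a, 1b, 1e, 2a, 2b or 2d, with edgeR adjusted p between 0.0563 and 0.155. Set differences coincide with the far deeper loss of Set transcript in set 1 and with a lower sequencing depth there. Markers of other cell types were called in the same direction: of 13 fibroblast markers tested Acta2 (-4.22, edgeR adjusted p = 6.22e-08) and Col1a1 (-2.14, edgeR adjusted p = 0.0111), of 6 trophectoderm markers Krt18 (-2.75, edgeR adjusted p = 0.000292) and Krt8 (-2.42, edgeR adjusted p = 0.00175), and of 5 parietal endoderm markers Fst (-3.19, edgeR adjusted p = 0.0119). Visceral endoderm markers pointed the other way, with a median of 1.01 over 4 tested, against -0.02 over all genes. Of those 4, edgeR called 0 and DESeq2 called 1 higher. The part of any of these in the Col4a2 and Sparc differences was not tested.

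Most of these transcripts were higher after RA in both genotypes, in a fit of all 9 set 2 samples. WT with RA was a single sample, so its spread was taken from the other set 2 groups, which it is assumed to resemble. The comparisons with and without RA share their control samples with the untreated KO comparison of set 2. The untreated KO control was the mean of KO1 and KO2, while both KO samples with RA are titled KO1. Line and RA are therefore not fully separated in the KO changes. In WT 8 of the 10 rose, against 24.8% of all genes, and in KO 9 rose, against 28.3%.

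Sparc was the gene with the highest RA response of the 10, from 632 and 686 CPM to 3431 in WT and from between 917 and 1126 to 4217 and 4366 in KO. The log2 changes were 2.34 (SE 0.14, edgeR adjusted p = 7.17e-14) and 1.95 (SE 0.10, edgeR adjusted p = 1.18e-15). Col4a1 rose from 115 and 98.0 CPM to 337 in WT and from between 194 and 230.3 to 724 and 655 in KO. Both changes were about 3-fold, with log2 values of 1.64 (SE 0.15, edgeR adjusted p = 6.20e-10) and 1.54 (SE 0.10, edgeR adjusted p = 5.64e-13). Col4a2 rose to 106 CPM in WT and to 226 and 192 in KO, by 1.41 and 1.57 on the log2 scale. The level of Col4a2 in WT with RA, 106 CPM, was above that of every untreated KO sample of set 2.

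Of the linkers, Nid1 and Hspg2 rose with RA in both genotypes. Nid1 rose from 32.2 and 37.2 to 91.9 CPM in WT (log2 1.35, SE 0.19, edgeR adjusted p = 1.27e-06) and from 26.7 to 35.1 CPM to 104 and 125 in KO (log2 1.73, SE 0.13, edgeR adjusted p = 1.36e-11). Hspg2 rose to 676 CPM in WT and to 942 and 851 in KO, by 1.26 and 1.31 on the log2 scale. Nid2 stayed between 17.6 and 22.0 CPM after RA and passed in neither genotype, with log2 values of -0.18 (SE 0.30) and 0.27 (SE 0.21).

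The laminin chains had smaller log2 changes with RA than collagen IV. Lamb1 rose by 0.67 on the log2 scale in each genotype, to 444 CPM in WT and to 923 and 811 in KO. Lamc1 rose by 0.48 and 0.72, to 217 CPM in WT and to 382 and 376 in KO. Lama5 rose by 0.70 in WT, to 139.5 CPM, and by 0.36 in KO, to 223 and 212. The Lama5 call in KO was lost when KO1 alone was the control (edgeR adjusted p = 0.215) and without any 1 of samples 2d, 2f, 2h or 2i. The Lamc1 call in WT was lost without sample 2a (edgeR adjusted p = 0.0731).

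Lama1 was the gene whose RA response differed by genotype. It stood at 28.0 CPM in the WT sample with RA, below both untreated WT samples (41.6 and 35.6), a change of -0.48 (SE 0.23) that did not pass (edgeR adjusted p = 0.0950). In KO it rose from between 49.3 and 68.2 CPM to 114.5 and 93.2 (log2 0.68, SE 0.14, edgeR adjusted p = 0.000125). The RA response in KO minus that in WT was 1.15 (SE 0.27, edgeR adjusted p = 0.0300), and it was the only 1 of the 10 to pass, where 0.348% of all genes were called in this direction. This call was lost without any 1 of samples 2a, 2b, 2c, 2h or 2i (edgeR adjusted p from 0.0525 to 0.196) and with the DESeq2 Wald test (adjusted p = 0.0581). The value itself stayed between 1.01 and 1.33 in those fits.

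**Figure D3:**
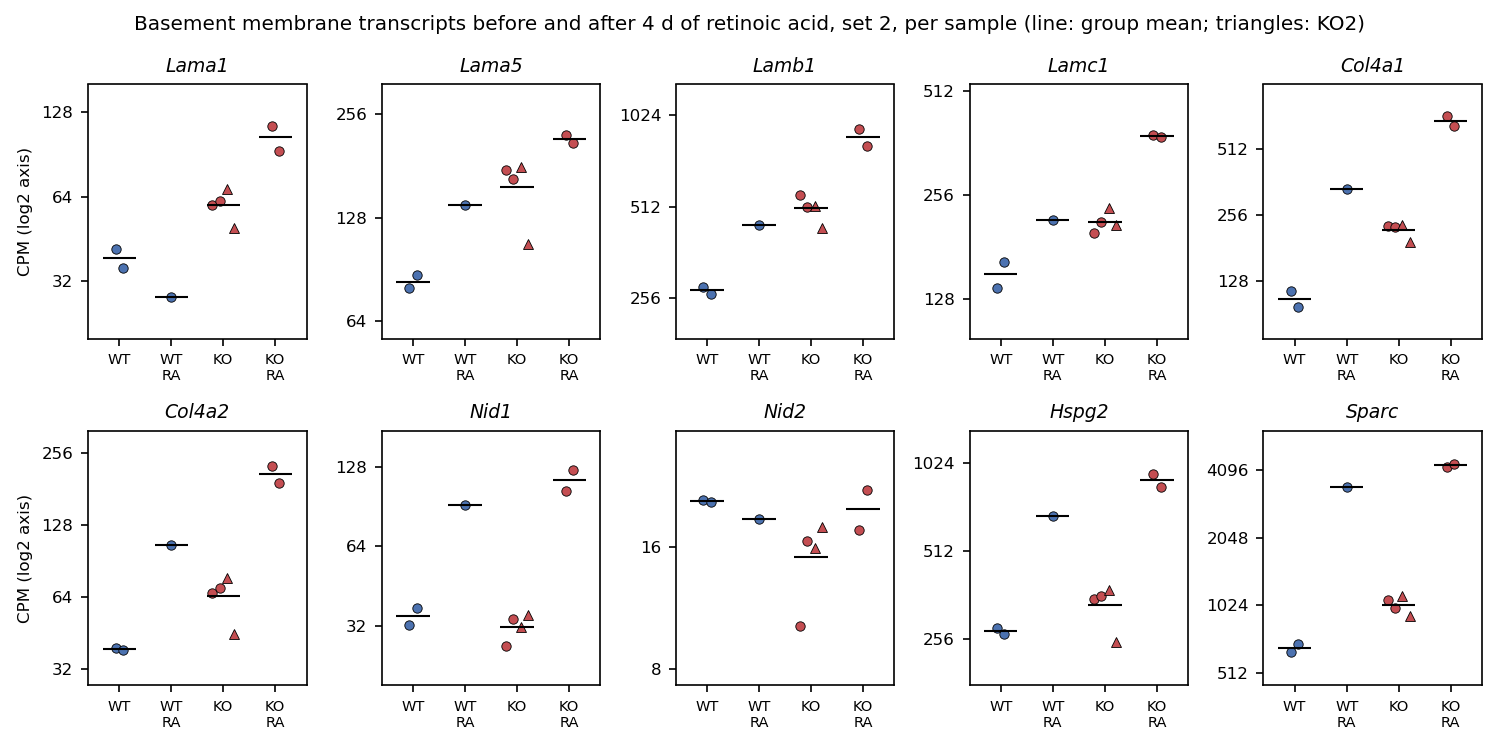
CPM (log2 axis) of the 10 genes in set 2 before and after 4 d of RA, WT in blue and KO in red, with the group mean as a line and KO2 as triangles. Collagen IV, Nid1, Hspg2 and Sparc are higher after RA in both genotypes, and Lama1 after RA lies at 93.2 and 114.5 CPM in KO and at 28.0 in WT.

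After RA, 5 of the 10 genes were called higher in KO than in WT, against 0.287% of all genes. They were 3 laminin chains and both collagen IV chains. Lama1 was at 114.5 and 93.2 CPM in KO against 28.0 in WT, 3.71-fold (log2 1.85, SE 0.23, edgeR adjusted p = 8.24e-05). Col4a1 was at 724 and 655 CPM against 337 (log2 0.99, SE 0.15, edgeR adjusted p = 0.00130). Lamb1 was at 923 and 811 CPM against 444 (log2 0.92, SE 0.15, edgeR adjusted p = 0.00194). These 3 were the members called in each fit that left out 1 of the other samples. The only WT sample with RA could not be left out, so those fits do not check it.

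Lamc1 (log2 0.76, SE 0.15, edgeR adjusted p = 0.00882) and Col4a2 (log2 0.94, SE 0.20, edgeR adjusted p = 0.0303) also passed. Lamc1 was lost without either KO sample with RA (edgeR adjusted p = 0.0887 and 0.121), and Col4a2 without any 1 of 2a, 2b, 2c, 2d, 2h or 2i (edgeR adjusted p between 0.0522 and 0.336). With every library as its own sample Lama1 alone passed. Lama5 stood at 223 and 212 CPM against 139.5 and did not pass (edgeR adjusted p = 0.390). Sparc, Hspg2, Nid1 and Nid2 differed by 0.28, 0.37, 0.28 and 0.04 on the log2 scale and did not pass.

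The share of Lama1 among the tags of the alpha chains Lama1 and Lama5 shows how the balance of these 2 chains varied. It was 69.5% and 51.1% in WT of set 1 and 58.0% to 76.8% in KO, so the genotypes overlapped. In set 2 it was 34.3% and 29.1% in WT and 25.4% to 31.4% in KO, again with overlap. After RA it was 16.7% in WT (95% Wilson interval 14.0% to 19.9%) and 33.9% and 30.6% in KO (31.6% to 36.3% and 28.2% to 33.1%). The intervals cover counting error only, and those of WT and KO with RA did not meet. In KH2 cells, where Lama1 was between 13.9 and 18.3 CPM, the share was 11.5% to 15.3%. The ranges of untreated set 1 and set 2 thus did not meet, while the genotypes overlapped within each set.

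**Figure D4:**
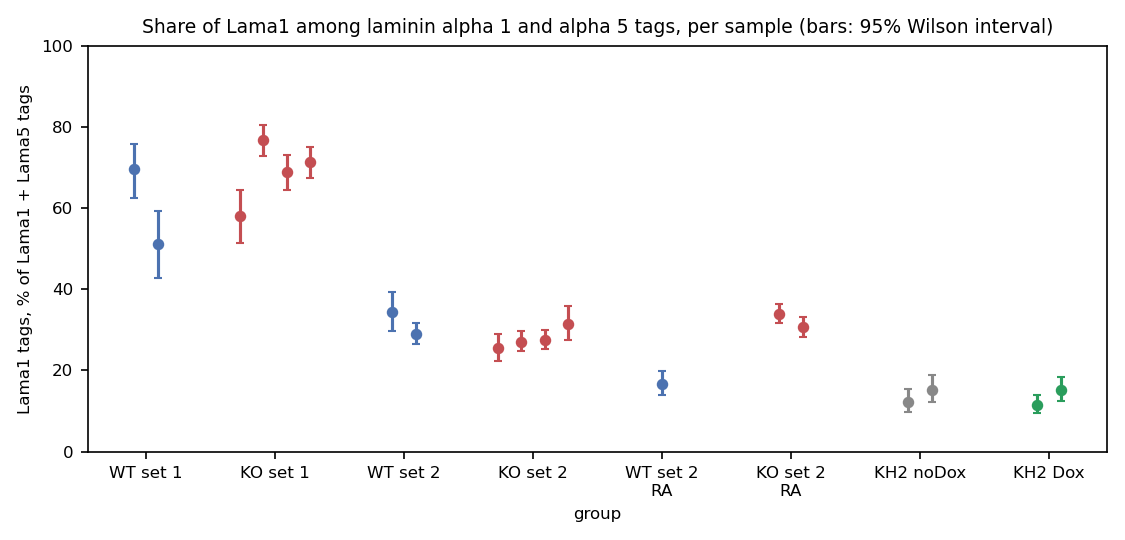
Lama1 tags as a percentage of Lama1 and Lama5 tags in each of the 19 samples, with 95% Wilson intervals. Set 1 samples lie between 51.1% and 76.8%, set 2 without RA between 25.4% and 34.3%, and the WT sample with RA at 16.7% lies below both KO samples with RA.

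With Dox in KH2 cells, 1 of the 10 genes passed the test. The Set gene itself was at 1020 and 964 CPM without and 1267 and 1126 with Dox, a difference that did not pass (edgeR adjusted p = 0.175), and the transgene's own tags cannot be told apart from it here. Sparc alone of the 10 fell, where 0.904% of all genes were called lower. It went from 618 and 697 CPM to 435 and 501 (log2 -0.48, SE 0.11, edgeR adjusted p = 0.0224). That call was lost without Dox 1 or either sample without Dox (edgeR adjusted p from 0.0925 to 0.421). Col4a1 stood at 36.2 and 36.1 CPM without and 24.4 and 24.9 with Dox, 2 groups that did not overlap, and did not pass (log2 -0.55, SE 0.18, edgeR adjusted p = 0.116). The laminin chains and nidogens had log2 values between 0.01 and 0.22, none of which passed. Among markers of embryonic fibroblasts, 5 of 16 tested also fell with Dox, including Col1a1 (-0.69, edgeR adjusted p = 0.00121) and Acta2 (-0.87, edgeR adjusted p = 0.00237), and their part in the Sparc result was not tested.

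Tag levels within a group were ordered, since each transcript is meant to yield about 1 tag. Whether tags are captured and assigned alike for every gene was not tested. Among ESC markers, mean Pou5f1 was only 7.36 CPM in WT of set 2 and mean Nanog 136. The order is therefore one of tags and need not be that of transcripts. In untreated WT cells of set 2 Sparc was highest, at a mean of 659 CPM ± 38.6 (SD, n = 2), followed by Hspg2 at 274 ± 8.54 and Lamb1 at 271 ± 10.4, which did not differ beyond their spread. Lamc1 followed at 151 ± 18.8 CPM, Col4a1 at 106 ± 11.9 and Lama5 at 83.2 ± 5.08. Col4a2 at 38.9, Lama1 at 38.6 ± 4.27 and Nid1 at 34.7 ± 3.55 CPM lay within their spread of each other, and Nid2 at 20.7 CPM was lowest. In WT of set 1 the alpha chains were in the other order, with Lama1 at 78.6 ± 29.3 CPM and Lama5 at 49.5 ± 8.36. Hspg2 showed the widest gap between sets in WT, 2.81-fold higher in set 2. KH2 cells without Dox had less Col4a1 (36.1 CPM), Col4a2 (9.26 CPM) and Lama1 (15.0 CPM) than any R1 group.

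Like the 10 genes, the lists in this and the later paragraphs were chosen with earlier results known. Their counts and p-values in untreated KO are a description and no independent support. Genes that fold and crosslink collagen IV were higher in untreated KO over both sets. Of 13 tested 9 rose and none fell, where 10.4% of all genes rose. The median log2 fold change was 0.56, against -0.02 over all genes. Serpinh1, a collagen chaperone of the endoplasmic reticulum, had mean levels of 85.1 (WT) and 274 (KO) CPM in set 1, and of 402 and 827 in set 2 (log2 1.31, edgeR adjusted p = 9.08e-08). The prolyl hydroxylase subunits P4ha2 (0.91, edgeR adjusted p = 0.000178) and P4ha1 (0.69, edgeR adjusted p = 0.000483) rose, and so did Pxdn (1.01, edgeR adjusted p = 0.000269), the peroxidase that crosslinks collagen IV. After RA, 1 of 14 tested, P4ha2, was higher in KO (1.00, edgeR adjusted p = 0.0199), where 0.287% of all genes were. Serpinh1 rose with RA by 2.82 in WT and 1.67 in KO, and that difference, -1.14, passed its own test (edgeR adjusted p = 0.00114). Mean Serpinh1 levels with RA were 2914 CPM in WT and 2847 in KO.

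Receptors for laminin and collagen IV had 5 of 10 tested higher, against the same 10.4% of all genes, and 1 lower in untreated KO over both sets. The collagen receptor kinase Ddr1 rose by 1.41 (edgeR adjusted p = 9.13e-05), the syndecan Sdc4 by 1.09 (edgeR adjusted p = 1.82e-06) and the integrin chain Itgb1 by 0.64 (edgeR adjusted p = 0.000483) on the log2 scale. Sdc1 and the collagen-binding integrin chain Itga1 were the other two that rose. The 1 that fell was Itga6, a laminin-binding integrin chain (-0.27, edgeR adjusted p = 0.0452), which is named after its value was seen, as is Itga1. Of 12 tested after RA, 0 were called between KO and WT by edgeR or DESeq2, and 1 had an unadjusted edgeR p below 0.05. With 0.287% of all genes called higher in that comparison, this count says nothing particular about receptors. Among 10 other basement membrane components 3 rose in untreated KO and none fell, against 10.4% of all genes higher: Tinagl1 (1.78, edgeR adjusted p = 0.000539), Frem2 (1.12, edgeR adjusted p = 0.00377) and agrin, Agrn (0.54, edgeR adjusted p = 0.00248). Matrix proteases went both ways, with Mmp15, Mmp2 and Mmp9 higher (10.4% of all genes were) and Mmp11 lower (-1.09, edgeR adjusted p = 0.000309) of 6 tested. For the lower calls, of Itga6 and Mmp11, 2194 of 11515 genes tested were called in all, 1200 of them higher and the rest lower.

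The other collagen IV chains were scarce in untreated cells. None of the 4 other collagen IV chains passed the filter over both sets. With RA, Col4a5 rose from a mean of 2.81 to 93.3 CPM in WT and from 4.59 to 97.1 in KO, by 4.84 and 4.21 on the log2 scale (edgeR adjusted p = 1.47e-13 and 7.02e-16). Npnt, an integrin ligand of basement membranes, rose with RA by 4.14 in WT and 3.71 in KO.

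Factors known to act upstream of laminin and collagen IV in endoderm were higher in KO in both states. Over both untreated sets 4 of 6 rose and none fell, where 10.4% of all genes rose: Sox17 (1.28, edgeR adjusted p = 0.000125), Gata4 (1.01, edgeR adjusted p = 0.00769), Foxa2 (0.82, edgeR adjusted p = 0.00138) and Gata6 (0.65, edgeR adjusted p = 0.00384). After RA 3 of 6 were higher in KO, where 0.287% of all genes were: Gata4 (2.55, edgeR adjusted p = 0.00478), Sox17 (1.70, edgeR adjusted p = 0.00149) and Foxa2 (1.33, edgeR adjusted p = 0.000436). Gata6 rose with RA in both genotypes, by 1.53 in WT and 1.32 in KO. Mean Gata4 after RA was 2.99 CPM in WT and 18.2 in KO, and mean Sox17 was 20.9 and 70.2. In KH2 cells the summed level of the 6 factors was 5.56 to 9.33 CPM, against at least 59.5 in every R1 sample.

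Some markers of other cell types also differed between genotypes, and the counts that rose over both untreated sets stand against 10.4% of all genes. Of 6 parietal endoderm markers 5 were tested over both untreated sets and 4 rose, including Pth1r (1.39, edgeR adjusted p = 1.70e-05) and Pdgfra (0.97, edgeR adjusted p = 0.00160). Their summed level was 49.6 to 81.0 CPM in WT and 88.5 to 209 in KO, and none of the 6 was at 0 counts in a group. Of 8 visceral endoderm markers 2 of 4 tested rose, with Afp and Apoa1 at 0 in both groups of set 1. In set 1 alone 0 of these 4 were called, with a median log2 fold change of -0.07. In set 2 alone 3 of the 4 rose, with a median of 0.83, where 5.64% of all genes rose. Of 7 trophectoderm markers Krt8 and Krt18 rose of 5 tested, with Elf5 at 0 in both groups of set 1. Of 6 endothelium markers 3 were tested, and 0 were called by edgeR or DESeq2, with 1 at an unadjusted edgeR p below 0.05. Emcn was at 0 in every untreated group. ESC markers fell: 6 of 8 were lower in untreated KO, and their summed level was 2319 to 3468 CPM in WT and 1318 to 1795 in KO. Of the 11515 genes tested over both sets 2194 were called, 1200 of them higher and the rest lower. The part of these cell types in the result was not tested.

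Feeder fibroblasts also make collagen IV, laminin and Sparc. The summed level of 19 fibroblast markers was 31.4 and 54.9 CPM in WT and 242 to 281 in KO of set 1, and 241 and 307 in WT and 342 to 455 in KO of set 2. Over both sets 4 of 13 tested rose, Col5a1, Col1a2, Col1a1 and Fbn1, against 10.4% of all genes, and Lum, Postn, Dcn, Col6a2 and Fbln5 were at 0 in WT of set 1. KO of set 1 and WT of set 2 overlapped in this sum, but without Acta2 they did not: it was then 138 to 175 CPM in KO of set 1 and 97.5 and 132 in WT of set 2. Without Acta2 WT of set 1 had 28.9 and 50.04 CPM and KO of set 2 had 158 to 205. Col4a1 was 330.2 to 531 CPM in KO of set 1 and 98.0 and 115 in WT of set 2. KH2 cells without Dox had a sum of 896 and 950 CPM with Col4a1 at 36.1 and 36.2. Most of that sum was Col1a1 alone, with a mean of 539 CPM in these KH2 samples. The part of fibroblasts in the KO differences was not tested.

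After RA the fibroblast sum was 5598 CPM in WT and 5343 and 6030 in KO, and 0 of 17 markers tested were called between the genotypes by edgeR or DESeq2, with 3 at an unadjusted edgeR p below 0.05. Few genes of any kind passed in that comparison, 0.287% higher, so the count does not show that fibroblast content was alike. Acta2 made up most of the sum, and without Acta2 it was 1096 CPM in WT and 1101 and 1155 in KO. The part of fibroblasts in the 5 genes called higher in KO after RA was not tested. With RA, 15 of 17 fibroblast markers rose in WT and 16 in KO, against 24.8% and 28.3% of all genes, and their part in the RA responses of Sparc, Nid1, Hspg2 and collagen IV was not tested either.

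**Figure D5:**
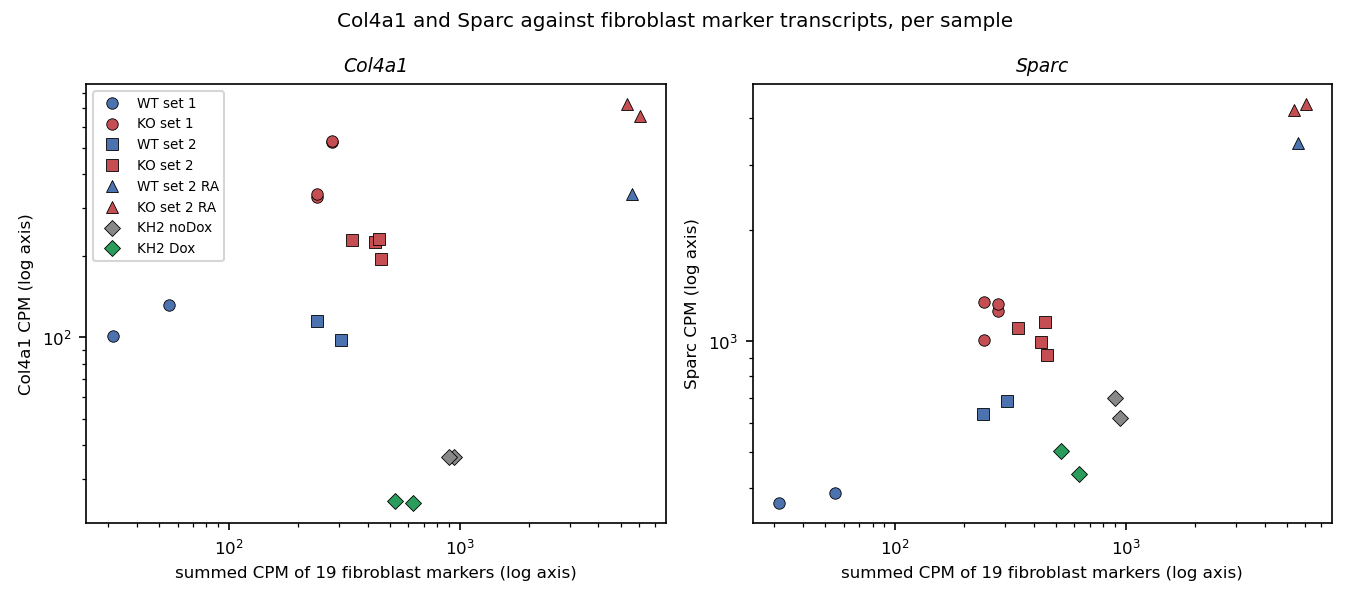
CPM of Col4a1 (left) and Sparc (right) against the summed CPM of 19 fibroblast markers in each of the 19 samples, all axes logarithmic, with colour and shape giving the group. KO samples of set 1 and WT samples of set 2 overlap between 241 and 307 CPM on the horizontal axis, an overlap that is absent without Acta2. KH2 samples without Dox combine a sum of 896 and 950 CPM with the Col4a1 levels of 36.1 and 36.2 CPM. Col1a1 alone has a mean of 539 CPM in those KH2 samples.

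The genes whose pattern was most like the median of the 10 were sought among 8364 named genes outside the lists with a mean of at least 10 CPM. Likeness was the root mean square distance over 5 log2 differences: KO against WT in each set, RA in WT, RA in KO, and Dox. The 6 nearest were Soga1 (0.121), Phka1, Cln6, Fos, Usp27x and Cldn6 (0.182). The members themselves lay between 0.267 (Lamb1) and 1.01 (Nid2) from that median, and 771 other genes were as close as the middle member distance, 0.536. The pattern is therefore shared by many genes.

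Promoter sequences from 250 bases before to 50 after the start were matched for 7 of the 10 genes in the RefSeq table (GRCm38.p6), all but Lama1, Lamc1 and Nid2. Their GC content was 55.3% (Sparc) to 74.0% (Col4a1), against a median of 52.7% over 32851 promoters. On either strand, GGGCGG was found in 6 of 7 and in 35.7% of all promoters, and CCAAT in 4 of 7 and in 37.4%. The GATA motif AGATAA was found in 0 of 7 and in 11.2% of all promoters. For the SOX factors, ATTGTT was found in 0 of 7 and in 10.7% of all. The half-site of nuclear receptors, AGGTCA, was found in 0 of 7 and in 16.3% of all. Such matches describe letters in these windows only.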

How the data were processed

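Mouse ESC RNA (500 ng, QuantSeq) was measured in 23 libraries. The authors deposited counts of tags per gene, not normalized, from featureCounts 1.6.0 with Ensembl 97 gene models, per the file headers. STAR 2.5.4b and Subread 2.0.0 are named in the submitters' processing notes. Libraries of 1 title code were summed to give 19 samples, in which 3 counts corresponded to 0.294 to 3.72 CPM.

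Groups came from the titles. Genes were tested with edgeR 4.0.16 (quasi-likelihood F test, R 4.3.3, TMM, filterByExpr with minimum count 10 and minimum total 15, robust dispersions) over all genes, with Benjamini-Hochberg adjustment at 0.05. The fits were tested on simulated data. Sub-batches A and B were split at the widest gap on principal component 1. Summaries used Python 3.11.15 and pandas 2.3.3.

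The 10 genes and all lists were chosen with earlier results of these data known. Named genes were the 10, Set, and, for each list and comparison, up to 4 called genes by lowest adjusted p. Alternatives were DESeq2 1.42.0 size factors, its Wald test, no filter, single libraries, replicate blocks and sums per line. Others were a sub-batch term, KO1 alone as RA control and each sample left out. Comparisons that use the only WT sample with RA could not be fitted without it. Fits within sub-batches were added after seeing the data. Some genes of the lists are not reported here.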

Additional observations from a re-analysis of the deposited data

Results flagged for a closer look

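Sample spread and differences between groups marked 5 values for another look. Among the 20 groups of 4 samples examined, the KO sample 1c lay far from the other KO samples of set 1 in Lama1, with a gap of 0.837 of the group's range (132 CPM against 225 to 243). The KO2 sample 2f lay far from the other KO samples of set 2 in Col4a1, with a gap of 0.863 of the range (194 CPM against 225 to 230.3). Chance marks about 1 in 20 such groups. Sample 1c had the fewest counts of all samples, 806412, and the part of this was not tested. Sample 2f lay in sub-batch A, where its library had 193 CPM of Col4a1. The other KO libraries of A, from 2d and 2e, had 148 and 193 CPM, so 2f did not stand apart within A.

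The KO effect on Col4a2 and on Sparc was smaller in set 2 than in set 1, by -1.21 and -0.99 on the log2 scale. For Sparc the WT level differed between the sets while the KO level was alike, and for Col4a2 the WT level was alike and the KO level differed. The RA response of Lama1 was higher in KO than in WT by 1.155 on the log2 scale, with 1 WT sample after RA behind it.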

How the results depend on the processing

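No value of the 10 genes that was called changed sign under an alternative. Over both sets 8 genes were called in every fit that left out 1 sample. Leaving out 1 sample at a time gave 6 to 9 called genes in set 1, 4 to 8 in set 2, 1 to 2 for the difference between sets, 7 to 8 for RA in WT, 8 to 9 for RA in KO, 3 to 6 for the genotypes after RA, 0 to 1 for the difference in RA response and 0 to 1 for Dox. With every library as its own sample 1 gene was called between the genotypes after RA and 0 for the difference in RA response, which was also 0 with the DESeq2 Wald test. The cause was not tested. These counts take both directions together: without sample 1f, Nid1 was called lower in KO of set 1 (log2 -0.80). Comparisons that use the only WT sample with RA could not be fitted without it, so the ranges do not cover its removal.

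Replicate numbers did not pair the samples: deviations of same-numbered samples correlated at 0.046, -0.144 and -0.091 in set 1 and at 0.035 in KH2. A replicate block left 8 genes called in set 1 and 1 for Dox, where calls over all genes went from 229 to 724. For the other comparisons the replicate block was fitted with every library as its own sample, so 2 choices changed at once: 8 genes were called over both sets, 7 in set 2 and 1 for the difference between sets, where Col4a2 was lost (adjusted p = 0.0768). Calls over all genes were then 450 in set 2, against 759 with single libraries and no block and 1165 with summed libraries, and 42 for the difference between sets, against 78 and 99.

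Counts over all genes moved elsewhere too. Set 2 gave 434 within sub-batch A and 195 to 2335 leaving out 1 sample, and set 1 gave 1200 and 570 to 1388. The difference between sets gave 171 without the filter and 22 to 127 leaving out 1 sample. KO against WT after RA gave 58, 94 without the filter, 8 with single libraries and 15 to 98 leaving out 1 sample. The difference in RA response gave 160, 284 without the filter, 98 with DESeq2, 2 with single libraries and 27 to 388 leaving out 1 sample. Dox gave 127 with DESeq2 and 6 to 234 leaving out 1 sample. Sums per line gave 1426 against 2194 over both sets. Depth limits Nid2 and, in set 1, all low genes.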
